A study of Mus musculus with 11 samples.

Results

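The 8 genes described here move chloride or bicarbonate across neuronal and glial membranes. They were taken by symbol from a fixed list, not by their measured values: Slc12a5, Slc12a2, Slc4a3, Slc4a4, Slc4a8, Slc4a10, Clcn2 and Clcn3. All 8 were found among the 23671 gene symbols that both count tables hold, and all 8 passed the filter on low counts in every comparison. RNA was sequenced from hippocampus of C57BL/6N mice at P32 (the labels say adult) in 2 rounds. In the heterozygous round, 4 1b+/- mice (3 male, 1 female), which carry on 1 Scn1a allele a CRISPR/Cas9 deletion of the non-coding 1b interval around an alternative promoter, were compared with 3 male WT mice. In the homozygous round, 2 1b-/- mice (1 male, 1 female) with the deletion on both alleles were compared with 2 female WT mice. The labels give no further allele and no treatment for any of the 11 mice, the deletion is constitutive, and all mutants came from 1 edited line. Replicate numbers name libraries within a group and pair nothing.

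The electrical effect of a GABA-A receptor depends on the chloride gradient that these genes help to set. KCC2 (Slc12a5) extrudes chloride and potassium from mature neurons, and NKCC1 (Slc12a2) takes chloride up with sodium and potassium. The balance of the pair shifts towards KCC2 as forebrain neurons mature, which is why their ratio is commonly quoted in work on epilepsy. Bicarbonate also passes GABA-A receptors and sets pH: Slc4a3 (AE3) exchanges it for chloride, Slc4a4 (NBCe1) carries it with sodium, mainly in astrocytes, and Slc4a8 (NDCBE) and Slc4a10 (NCBE) are sodium-driven bicarbonate carriers of neurons. Clcn2 encodes ClC-2, a chloride channel of the plasma membrane, and Clcn3 encodes ClC-3, a chloride-proton exchanger of endosomes and synaptic vesicles.

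In the GENCODE annotation of mm9, Slc12a5 (ENSMUSG00000017740.9) lies at chr2:164786316-164825228 on the plus strand and Slc4a10 (ENSMUSG00000026904.11) at chr2:61884519-62164787 on the plus strand of the same chromosome. Slc4a10 ends 3944051 bases before Scn1a (ENSMUSG00000064329.7), which lies at chr2:66108838-66278897 on the minus strand. Slc4a3 (ENSMUSG00000006576.9) lies at chr1:75542841-75558747 (plus), Slc4a4 (ENSMUSG00000060961.8) at chr5:89315843-89668678 (plus) and Slc4a8 (ENSMUSG00000023032.6) at chr15:100592178-100654399 (plus). Clcn2 (ENSMUSG00000022843.10) lies at chr16:20703037-20717819 and Clcn3 (ENSMUSG00000004319.9) at chr8:63389186-63462097, both on the minus strand. Counts of a gene are reads over its exons. Exons of Clcn2 overlap exons of 2 genes on the opposite strand, Fam131a and Polr2h, and exons of Slc12a5 overlap the gene model Gm11459 on the same strand. How strand was treated in counting is not given in the sources used here, so part of the Clcn2 counts could belong to its neighbours.

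RefSeq start sites (GRCm38.p6) were matched by symbol for 7 of the 8 genes, with 11 starts in all, and not for Slc12a2. The 150 bases before the start are printed for Slc12a5, whose alternative starts have different upstream sequence, and for Slc4a8 and Clcn2, which had the smallest p-values of the 8 genes in 1b-/- mice. Capitals mark a match on either strand to the E-box CACGTG or the CCAAT box (CCAAT, or ATTGG on the other strand). The motifs do not overlap in these windows.
Slc12a5, upstream start (chr2:164960696-164960845, plus strand): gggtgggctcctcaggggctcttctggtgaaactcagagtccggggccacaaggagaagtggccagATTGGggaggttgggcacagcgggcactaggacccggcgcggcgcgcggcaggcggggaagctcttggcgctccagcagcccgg
Slc12a5, downstream start (chr2:164967838-164967987, plus strand): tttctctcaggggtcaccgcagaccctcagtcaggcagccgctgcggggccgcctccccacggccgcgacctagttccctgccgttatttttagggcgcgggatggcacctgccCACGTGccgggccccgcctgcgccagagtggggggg
Slc4a8 (chr15:100761597-100761746, plus strand): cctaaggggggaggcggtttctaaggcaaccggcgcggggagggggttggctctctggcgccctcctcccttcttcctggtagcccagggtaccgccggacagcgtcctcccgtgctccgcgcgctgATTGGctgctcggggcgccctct
Clcn2 (chr16:20716637-20716786, minus strand): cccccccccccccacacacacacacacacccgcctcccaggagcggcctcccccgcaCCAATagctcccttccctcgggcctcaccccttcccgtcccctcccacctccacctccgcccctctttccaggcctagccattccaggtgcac
All 4 windows were rich in G and C, with between 70% and 71.3% of bases. The E-box lay 36 to 31 bases before the downstream start of Slc12a5, a motif found in 4.3% of all 32843 RefSeq windows of this length. A CCAAT box lay before the upstream Slc12a5 start, Slc4a8 and Clcn2, and before 1 start each of Slc4a4 and Clcn3, so 5 of the 11 windows of the 7 genes held this motif, which was found in 24.5% of all windows. The cAMP response element TGACGTCA (1.36% of windows) and the EGR site GCGNGGGCG (3.81%) matched none of the 11 windows of the 7 genes. A match is a description of the letters only.

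Totals ran from 20667122 to 36145161 counts per library, and no member had fewer than 1130 counts in any library, so the spread between mice and not counting error limited the comparisons. Scn1a was lower in every 1b-/- library (25.9 and 16.2 CPM, counts relative to the library's total, scaled over all 11 libraries) than in WT libraries of its round (131 and 170 CPM), a log2 difference of -2.83 (adjusted p = 0.0211, edgeR quasi-likelihood test). In 1b+/- mice the log2 difference of Scn1a was -0.47 (adjusted p = 0.303, edgeR). The WT libraries of the homozygous round stood apart from the other 9 in regional markers. Summed over 14 striatum markers they held 8810 and 3717 CPM (scaled within a round, like all marker sums), against 340 to 553 CPM in the other libraries, and they held less of the CA3 pyramidal cell list (297 and 376 CPM, against 611 and 758 CPM in 1b-/- libraries). No marker of either list was at 0 in all libraries. Choroid plexus markers varied within groups, from 58.6 to 13920 CPM over the homozygous round. Leaving out both of these WT libraries would leave no control in that round, so each is left out in turn instead. Such a fit still uses a WT library rich in striatum markers, so it cannot show what a control without them would give. In bulk tissue, fewer cells of a type and less RNA per cell cannot be told apart.

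Slc12a5 was the most abundant of the 8 genes per length in every group. Levels between genes are given as CPM per kilobase of annotated exon, with CPM scaled over all 11 libraries. Among the 3 heterozygous-round WT libraries Slc12a5 stood at 78.7 ± 1.5 (SD, n = 3). Slc4a10 followed at 52.5 ± 2.2, Slc4a4 at 29.3 ± 2.3 and Slc12a2 at 22.7 ± 3.7. Slc4a3 (15.5 ± 0.28), Clcn3 (15.1 ± 0.18), Slc4a8 (11.97 ± 0.20) and Clcn2 (8.41 ± 0.42) were the lowest. No neighbours in this order overlapped in range, although Slc4a3 (15.3 at the lowest) and Clcn3 (15.3 at the highest) almost met. In the 2 WT libraries of the homozygous round Slc12a5 was again first, at 72.3 ± 8.3 (SD, n = 2), and Slc4a8 was last, at 7.39 ± 1.25. There the ranges of Slc4a10 (26.1 ± 9.3), Slc12a2 (21.5 ± 3.2), Slc4a4 (21.3 ± 3.6) and Slc4a3 (19.1 ± 3.8) overlapped each with the next, so their order was not resolved, and Clcn3 (11.1 ± 2.2) and Clcn2 (9.23 ± 0.81) also overlapped. In the 4 1b+/- libraries the order was that of their WT libraries, but Slc4a4 (30.3 ± 1.2) overlapped Slc12a2 (29.3 ± 4.0) and Slc4a3 overlapped Clcn3. In the 2 1b-/- libraries Slc12a5 (69.7 ± 9.96) and Slc4a10 (34.5 ± 5.6) led, Slc4a3, Slc4a4, Slc12a2 and Clcn2 (from 16.2 down to 12.2) overlapped each with the next, and Clcn3 (9.68 ± 0.13) was last. Exon lengths came from the annotation named above, which may not be the one used for counting, and read type differed between the rounds.

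**Figure D1:**
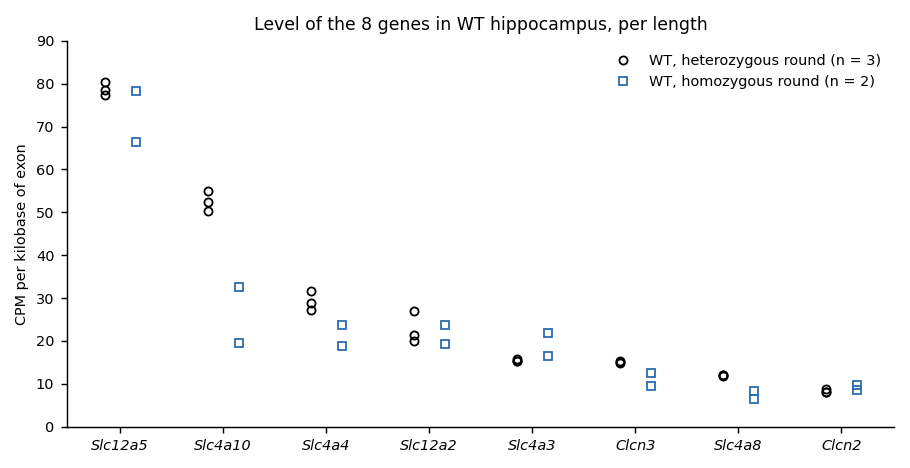
Level of each gene in CPM per kilobase of exon (vertical axis, linear) in WT libraries, with 1 point per library. Circles are the 3 heterozygous-round libraries and squares the 2 homozygous-round ones. Slc12a5 lies above the other 7 genes in all 5 libraries.

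The first question was whether any of the 8 genes changed with loss of 1 copy of the 1b interval. None of the 8 passed the threshold in 1b+/- hippocampus (adjusted p under 0.05, edgeR), where 0 of 14630 genes did (0%). The targeted gene Scn1a was not called either, so the lack of a call does not show the lack of a change. At an unadjusted p under 0.05 edgeR named 1649 genes (11.3%), DESeq2 called 245 genes after adjustment and edgeR's likelihood ratio test called 191, and none of these tools called a member after adjustment. Slc12a2 and Clcn2 were the 2 members with an unadjusted p under 0.05. The median log2 difference of the 8 genes was 0.03, against 0.00 over all genes tested. In 1 member, Slc12a5, the groups did not overlap, which held for 10.9% of all genes tested.

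In 1b-/- hippocampus 0 of the 8 genes passed the threshold either, against 531 of 14838 genes (3.58%, 306 higher and 225 lower). Slc4a8 and Clcn2 had an unadjusted p under 0.05, as had 26.4% of all genes. DESeq2 called 2144 genes and 1 member (Slc4a8), and the likelihood ratio test 1829 genes and 0 members. The groups did not overlap for 3 members (Slc4a4, Slc4a8 and Clcn2), which held for 59.7% of all genes with 2 libraries a group. The median log2 difference of the 8 genes was -0.11 (range -0.55 to 0.57), against 0.00 over all genes. The third comparison set the change in 1b-/- mice against that in 1b+/- mice, each relative to the WT libraries of its round. It called 1 of 8 members, Slc4a8, beside 4071 of 14905 genes (27.3%).

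**Figure D2:**
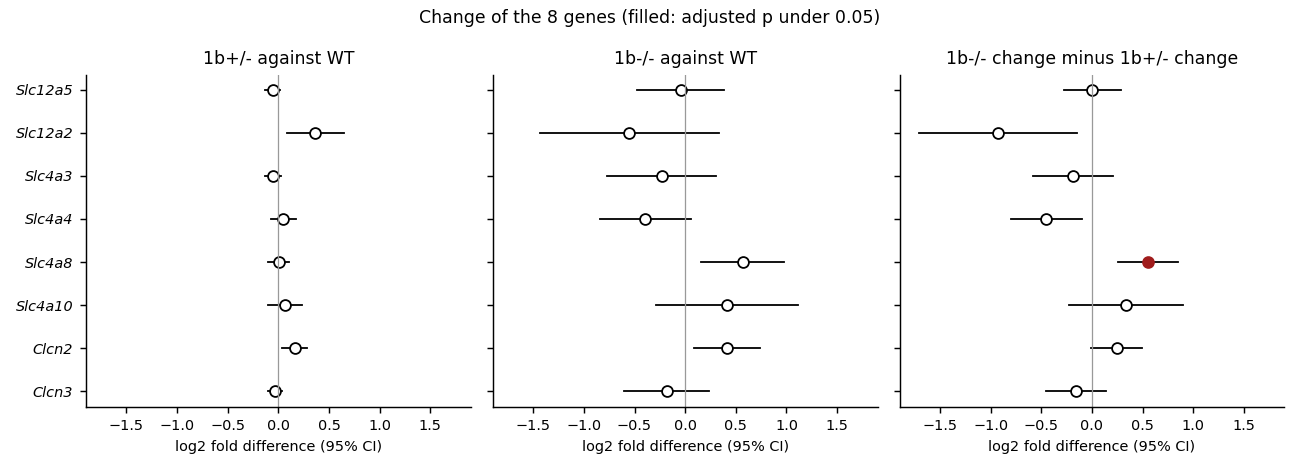
Log2 fold difference of each gene with its 95% confidence interval in the 3 comparisons. Filled symbols mark an adjusted p under 0.05 (edgeR), which only Slc4a8 reached, at 0.56 in the difference between the changes (right panel).

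Slc12a5, which encodes the chloride extruder KCC2, lay near its WT level in both mutants. In the heterozygous round it measured 541, 562 and 548 CPM in WT and 537, 522, 537 and 521 CPM in 1b+/- libraries. All 4 mutant libraries lay below all 3 WT libraries, but by little. The log2 difference was -0.06 (SE 0.03, 95% CI -0.13 to 0.02, adjusted p = 0.562, edgeR). WT libraries of the homozygous round measured 571 and 484 CPM and 1b-/- libraries 559 and 463 CPM. The libraries of each genotype differed from each other more than the genotypes did. This was a log2 difference of -0.05 (SE 0.17, 95% CI -0.48 to 0.39, adjusted p = 0.887, edgeR), so 2 mice a group could not resolve a difference inside that interval. The difference between the changes was 0.00 (95% CI -0.28 to 0.28, adjusted p = 0.987).

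Slc12a2, which encodes the chloride importer NKCC1, had differences of opposite sign in the mutants, neither past the threshold. Heterozygous-round values were 171, 135 and 126 CPM in WT and 154, 177, 205 and 208 CPM in 1b+/- libraries. WT replicate 1 lay within the mutant range, and the other WT libraries below it. The log2 difference was 0.37 (SE 0.12, 95% CI 0.08 to 0.65, unadjusted p = 0.0164, adjusted p = 0.329, edgeR). In the homozygous round it measured 128 and 157 CPM in WT and 63.6 and 131 CPM in 1b-/- libraries. Only 1b-/- replicate 1 lay below the WT libraries, and replicate 2 lay between them. This was a log2 difference of -0.55 (SE 0.35, 95% CI -1.43 to 0.33, adjusted p = 0.365, edgeR), and it was -1.16 (adjusted p = 0.0460) without 1b-/- replicate 2 and -0.12 without 1b-/- replicate 1. The difference between the changes was -0.93 (SE 0.35, 95% CI -1.71 to -0.15, adjusted p = 0.0736, edgeR), and its size rested on single libraries. It was -1.53 (adjusted p = 0.00410) without 1b-/- replicate 2, -0.51 (adjusted p = 0.166) without 1b-/- replicate 1 and -0.59 (adjusted p = 0.190) with sex as a covariate.

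Slc12a2 is also abundant in oligodendrocyte-lineage and choroid plexus cells, and markers of both differed between the libraries. Its identifier is ENSMUSG00000024597.9, and its exons overlap no other annotated gene. In the heterozygous round the 8 oligodendrocyte markers summed to 9926, 6252 and 6015 CPM in WT replicates 1 to 3. In 1b+/- replicates 1 to 4 they summed to 9203, 9312, 8605 and 10115 CPM. WT replicate 1, the WT library with the most Slc12a2, thus also held the most of these markers among WT. The order differed among 1b+/- libraries, where replicate 3 held the fewest of these markers but had more Slc12a2 than replicates 1 and 2. All 8 markers had a positive log2 difference in 1b+/- mice and 0 were called. The same list summed in the homozygous round to 22741 and 16425 CPM in WT and 11702 and 13684 CPM in 1b-/- libraries, with all 8 differences negative and 0 called. There the WT library with more of these markers had less Slc12a2 (128 against 157 CPM), and the 1b-/- library with more had more (131 against 63.6 CPM). The 12 choroid plexus markers summed to 66.8, 1256, 2789 and 2279 CPM in 1b+/- replicates 1 to 4, the same libraries in which Slc12a2 was 154, 177, 205 and 208 CPM. They summed to 800, 1003 and 1162 CPM in WT replicates 1 to 3 of the heterozygous round. Slc12a2 ran the other way there, at 171, 135 and 126 CPM. The markers summed to 58.6 and 3544 CPM in WT libraries of the homozygous round, and to 66.1 and 13920 CPM in 1b-/- replicates 1 and 2. All 12 had a positive difference in each mutant and 0 were called. The part of these cells in the Slc12a2 differences was not tested.

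The ratio of Slc12a5 to Slc12a2 counts needs no library scaling, and was taken in each library. It was 3.17, 4.15 and 4.34 in WT libraries of the heterozygous round and 3.50, 2.95, 2.62 and 2.51 in 1b+/- libraries. The groups overlapped through WT replicate 1 and 1b+/- replicate 1. The mean log2 ratio differed by -0.42 between 1b+/- and WT (1.52 ± 0.21, SD, n = 4, against 1.94 ± 0.24, SD, n = 3), with an exact two-sided permutation p of 0.0857 over 35 splits, where the smallest possible p is 0.0286. Homozygous-round ratios were 4.48 and 3.08 in WT and 8.80 and 3.54 in 1b-/- libraries. The high mean in 1b-/- mice came from replicate 1 alone, and replicate 2 lay between the WT libraries. The log2 difference was 0.59 (exact two-sided permutation p = 0.667), in a design of 2 against 2 whose smallest possible p is 0.333. Without 1b-/- replicate 1, the only male of that round, it was -0.07. Per kilobase of exon the ratio ran from 2.28 to 3.94 in the heterozygous round and from 2.80 to 7.99 in the homozygous round.

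**Figure D3:**
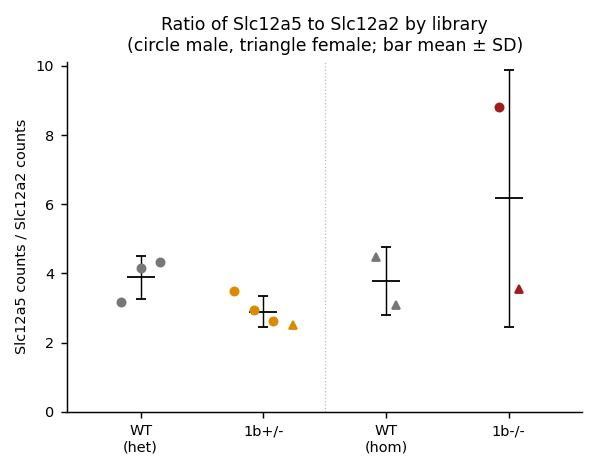
Ratio of Slc12a5 to Slc12a2 counts (vertical axis, linear) in each library, with 1 point per library, group mean and SD as bars, males as circles and females as triangles. The dotted line parts the rounds. The 1b-/- male, at 8.80, stands above the other 10 libraries, which lie between 2.51 and 4.48.

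**Figure D4:**
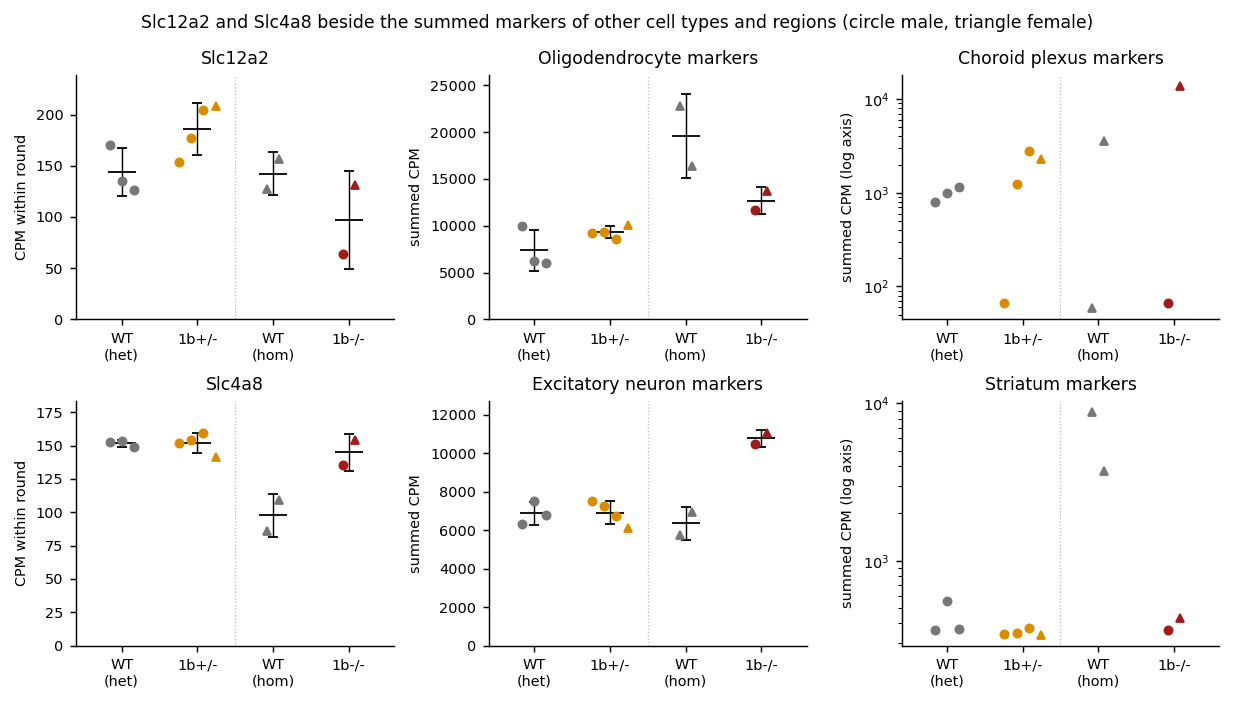
Slc12a2 and Slc4a8 (CPM within a round, left) beside the summed CPM of marker lists in the same libraries, with 1 point per library. Bars are mean and SD, and the choroid plexus and striatum panels have log axes without bars. The WT libraries of the homozygous round hold 8810 and 3717 CPM of striatum markers, against at most 553 CPM elsewhere, and are the 2 libraries with the least Slc4a8.

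Among the bicarbonate transporters, Slc4a8 had the clearest difference between genotypes. Homozygous-round values were 86.3 and 109 CPM in WT and 135 and 154 CPM in 1b-/- libraries, without overlap. This was a log2 difference of 0.57 (SE 0.16, 95% CI 0.16 to 0.98, adjusted p = 0.111, edgeR), and the adjusted p was 0.0307 with DESeq2. In the heterozygous round it measured 153, 153 and 149 CPM in WT and 152, 154, 160 and 142 CPM in 1b+/- libraries. These groups overlapped fully, with a log2 difference of 0.00 (95% CI -0.10 to 0.10, adjusted p = 0.993, edgeR). The change in 1b-/- mice exceeded that in 1b+/- mice by 0.56 (SE 0.13, 95% CI 0.26 to 0.85, adjusted p = 0.0126, edgeR), and the call held in all 18 alternatives, with adjusted p between 0.00107 and 0.0421. Scaled over all 11 libraries, however, the 1b-/- libraries (133 and 150 CPM) lay near the WT libraries of the other round (153 to 158 CPM), and the WT libraries of the homozygous round (84.8 and 108 CPM) were the 2 lowest of the 11. These are the libraries that stood apart in striatum markers, and none of the 18 alternatives left out both of them. Read type differed between the rounds, and levels of other members did too. Libraries of the homozygous round were the 4 lowest of 11 for Slc4a10, Slc4a4 and Clcn3, and 3 of the 4 lowest for Slc4a8. Levels set across rounds therefore do not show which group moved. The 6 excitatory neuron markers summed to 5733 and 6963 CPM in WT libraries of the homozygous round and to 10468 and 11060 CPM in 1b-/- libraries. Of these markers 5 had a positive log2 difference, with 2 called higher, and 1 had a negative one (-1.02, not called). The part of regional makeup in the Slc4a8 difference was not tested.

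Slc4a10, a neuronal carrier of the same branch and also a main transporter of the choroid plexus, varied widely within the homozygous round. It measured 127 and 213 CPM in WT and 199 and 254 CPM in 1b-/- libraries. The genotypes overlapped, and the log2 difference was 0.41 (SE 0.28, 95% CI -0.28 to 1.11, adjusted p = 0.388, edgeR). It was 0.09 without WT replicate 1 and 0.83 without WT replicate 2, neither past the threshold. Heterozygous-round values were 327, 315 and 343 CPM in WT and 303, 327, 375 and 372 CPM in 1b+/- libraries. The 1b+/- libraries enclosed the WT range, with a log2 difference of 0.07 (SE 0.07, adjusted p = 0.771, edgeR). The difference between the changes was 0.34 (adjusted p = 0.356), and it rested on single libraries: it was 0.75 (adjusted p = 0.0147) without WT replicate 2 of the homozygous round and 0.01 (adjusted p = 0.975) without WT replicate 1.

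Slc4a4, the mainly astrocytic sodium bicarbonate cotransporter, was lower in 1b-/- libraries without passing the threshold. It measured 262 and 206 CPM in WT and 196 and 161 CPM in 1b-/- libraries. Both mutant values lay below both WT values, with a log2 difference of -0.39 (SE 0.18, 95% CI -0.84 to 0.06, adjusted p = 0.234, edgeR). In the heterozygous round it measured 334, 305 and 286 CPM in WT and 332, 321, 322 and 301 CPM in 1b+/- libraries, a log2 difference of 0.05 (SE 0.06, adjusted p = 0.774, edgeR). The difference between the changes was -0.45 (SE 0.16, 95% CI -0.80 to -0.10, adjusted p = 0.0598, edgeR). It sat at the threshold: the adjusted p ranged from 0.0137 to 0.194 over the 18 alternatives, and 7 of them called it. The 8 astrocyte markers were split in 1b-/- mice, with 4 positive and 4 negative log2 differences. These ran from -0.53 to 1.86, with a median of 0.00 and 0 called. The markers summed to 5390 and 5774 CPM in WT and 6343 and 5241 CPM in 1b-/- libraries.

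Slc4a3, the chloride-bicarbonate exchanger AE3, showed no difference past the threshold. It measured 129, 128 and 133 CPM in WT and 123, 124, 129 and 126 CPM in 1b+/- libraries, a log2 difference of -0.05 (SE 0.04, 95% CI -0.13 to 0.03, adjusted p = 0.634, edgeR). In the homozygous round it measured 191 and 143 CPM in WT and 163 and 122 CPM in 1b-/- libraries. The genotypes overlapped there, with a log2 difference of -0.23 (SE 0.21, 95% CI -0.77 to 0.30, adjusted p = 0.524, edgeR). With a library left out it ran from -0.01 (without WT replicate 1) to -0.46 (without 1b-/- replicate 1), with 0 calls. The changes in the mutants differed by -0.19 (SE 0.18, adjusted p = 0.471, edgeR).

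**Figure D5:**
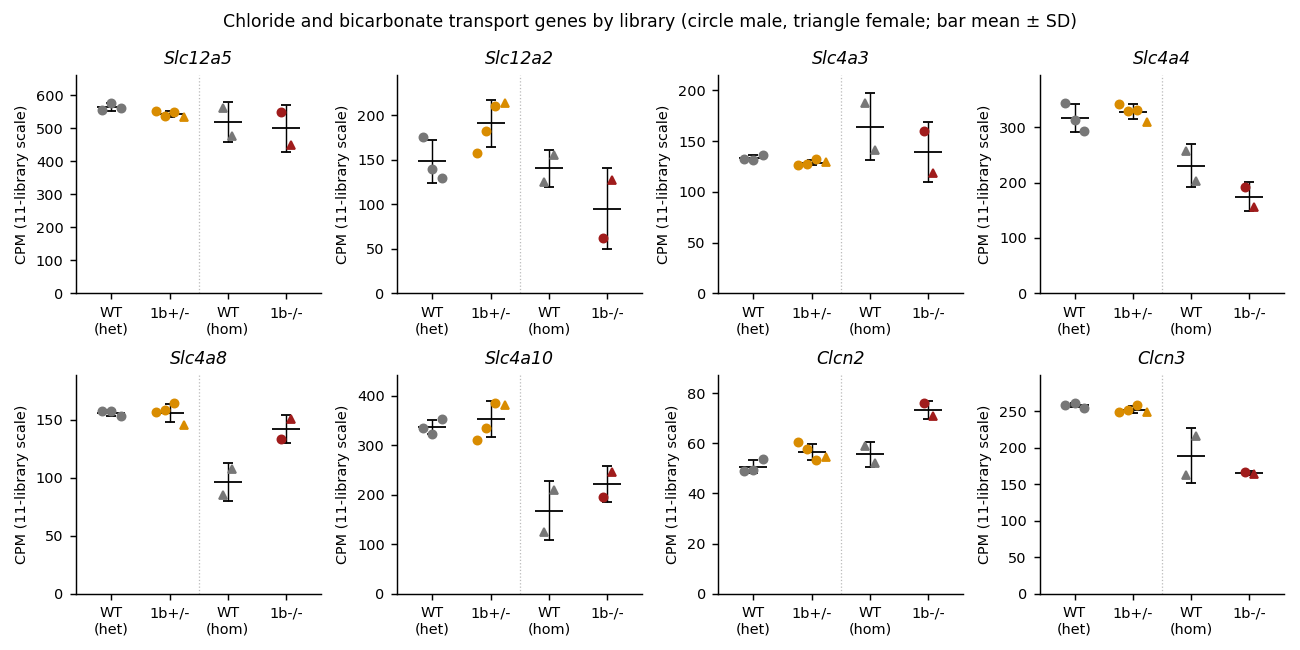
CPM of each gene in each library, scaled over all 11 libraries (vertical axes, linear, from 0), with 1 point per library and mean and SD as bars. Males are circles and females triangles, and the dotted line parts the rounds. The coefficient of variation of the 8 genes ran from 1.17% to 16.2% in WT libraries of the heterozygous round and from 9.03% to 35.5% in those of the homozygous round.

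The chloride channel gene Clcn2 was the only member with an unadjusted p under 0.05 against WT in both mutants, and it was higher than the WT mean in each. Of all genes tested with edgeR, 11.3% had such a p in 1b+/- and 26.4% in 1b-/- mice. The share with both was not determined, so nothing is read from the pair. Heterozygous-round values were 47.8, 47.9 and 52.1 CPM in WT and 58.9, 56.2, 51.8 and 53.2 CPM in 1b+/- libraries. Only 1b+/- replicate 3 lay within the WT range. The log2 difference was 0.16 (SE 0.06, 95% CI 0.03 to 0.29, unadjusted p = 0.0198, adjusted p = 0.343, edgeR). Homozygous-round values were 60.1 and 52.9 CPM in WT and 77.0 and 73.0 CPM in 1b-/- libraries. The genotypes did not overlap, and the log2 difference was 0.41 (SE 0.13, 95% CI 0.08 to 0.73, unadjusted p = 0.0227, adjusted p = 0.131, edgeR). The changes in the mutants differed by 0.24 (95% CI -0.0047 to 0.49, adjusted p = 0.131, edgeR), by 0.33 (adjusted p = 0.0464) without WT replicate 1 of the homozygous round and by 0.15 (adjusted p = 0.362) without WT replicate 2. The opposite-strand overlap described above applies to these counts.

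Clcn3, the vesicular chloride-proton exchanger gene, had the smallest coefficient of variation of the 8 genes among WT libraries of the heterozygous round (1.17%). It measured 252, 254 and 248 CPM in WT and 243, 245, 252 and 243 CPM in 1b+/- libraries, a log2 difference of -0.03 (SE 0.03, 95% CI -0.10 to 0.04, adjusted p = 0.737, edgeR). In the homozygous round it measured 165 and 219 CPM in WT and 169 and 169 CPM in 1b-/- libraries. The mutants lay between the WT libraries, with a log2 difference of -0.18 (SE 0.17, 95% CI -0.61 to 0.24, adjusted p = 0.523, edgeR). The difference between the changes was -0.16 (SE 0.13, adjusted p = 0.402, edgeR). It was -0.35 (adjusted p = 0.00372) without WT replicate 1 of the homozygous round and 0.05 without WT replicate 2, so its sign depended on 1 library.

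Within the homozygous round, the members also differed between the libraries of a genotype, which was noticed after the values were seen. In each genotype 1 library held far more choroid plexus marker counts, WT replicate 2 and 1b-/- replicate 2. For 7 of the 8 genes the difference between that library and the other of its genotype had the same sign in WT and in 1b-/- mice, as it had for 50.4% of 14833 genes tested. Slc12a2 was higher in the library with more of these markers, by 0.30 in WT and 1.04 in 1b-/- on the log2 scale. Slc4a8 (0.34 and 0.19) and Slc4a10 (0.74 and 0.35) were also higher. Slc12a5 (-0.24 and -0.27), Slc4a3 (-0.41 and -0.42), Slc4a4 (-0.35 and -0.28) and Clcn2 (-0.18 and -0.08) were lower, and Clcn3 was mixed (0.41 and -0.01). The difference of Slc12a5 between mice of a genotype exceeded its difference between genotypes. No test was made on 2 pairs, sex parts the 1b-/- pair as well, and the WT pair also differed in striatum markers (8810 CPM in replicate 1 and 3717 CPM in replicate 2).

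Other genes of chloride and acid-base transport came from 7 lists, chosen with earlier results known. In 1b+/- mice 0 genes of any list were called. In 1b-/- mice 4 of the 72 list genes tested were called (5.56%), beside 3.58% of all genes. Of the KCC and NKCC family outside the members, 5 of 7 genes were tested and 0 were called. Slc12a7 (KCC4) had the smallest p in each round, with a log2 difference of 0.92 (SE 0.26, adjusted p = 0.108, edgeR) in 1b-/- and 0.13 (adjusted p = 0.697) in 1b+/- mice. It measured 5.06 and 6.46 CPM in WT and 9.17 and 12.6 CPM in 1b-/- libraries, without overlap.

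Of 10 genes for WNK and SPAK/OSR1 kinases, which phosphorylate these cotransporters, and KCC2 partners, 1 was lower and 0 higher in 1b-/- mice. Neto2, an auxiliary protein of kainate receptors that binds KCC2, measured 113 and 100 CPM in WT and 35.7 and 26.1 CPM in 1b-/- libraries. This was a log2 difference of -1.79 (SE 0.19, adjusted p = 0.0235, edgeR). Scaled over all 11 libraries, WT libraries held 111 and 99.1 CPM in this round and 76.4 to 80.7 CPM in the other. The 1b-/- libraries held 35.1 and 25.4 CPM on this scale, below every library of the other round (74.7 CPM at the lowest). The kinase gene Wnk1 had the smallest p in 1b+/- mice, at 0.19 (SE 0.07, adjusted p = 0.369), and measured 361, 307 and 280 CPM in WT and 355 to 371 CPM in 1b+/- libraries.

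Of the SLC4 and SLC26 exchangers outside the members, 12 of 15 were tested in the homozygous round and 13 in the heterozygous round, and 0 were called in either. Slc4a7, a sodium bicarbonate cotransporter, had a log2 difference of 0.86 in 1b-/- mice (SE 0.18, adjusted p = 0.0690, edgeR), at 17.5 and 19.4 CPM in WT and 29.1 and 38.0 CPM in 1b-/- libraries. On the scale of all 11 libraries its WT values were 17.2 and 19.1 CPM in that round and 54.2 to 60.3 CPM in the other. The 1b-/- libraries held 28.7 and 37.0 CPM on this scale, so both genotypes of the homozygous round lay below every library of the other round. Slc26a10 had the smallest p in 1b+/- mice (0.53, SE 0.17, adjusted p = 0.297). Slc4a5, a bicarbonate transporter of the choroid plexus named after its values were seen, measured 0.50 and 23.7 CPM in WT and 0.43 and 78.2 CPM in 1b-/- libraries, high in the same libraries as the choroid plexus markers.

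The carbonic anhydrase family, whose catalytic members make bicarbonate from carbon dioxide, gave 0 calls among 13 tested genes in 1b-/- and 11 in 1b+/- mice. Car2, a glial enzyme, had the smallest p in 1b-/- mice (-0.48, SE 0.12, adjusted p = 0.0834, edgeR), at 275 and 272 CPM in WT and 192 and 199 CPM in 1b-/- libraries. The oligodendrocyte markers, whose values stand above, lay lower in the same libraries, and their part in this was not tested. Car10, a related protein without that catalytic activity, had the smallest p in 1b+/- mice (-0.39, SE 0.07, adjusted p = 0.0777), at 89.3, 96.2 and 102 CPM in WT and 65.6, 76.6, 75.8 and 75.1 CPM in 1b+/- libraries, without overlap.

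Of 8 tested sodium-proton exchangers, 1 was higher and 1 lower in 1b-/- mice. Slc9a4 was nearly absent from the WT libraries of the homozygous round, with 2 and 5 counts (0.090 and 0.23 CPM), and measured 14.3 and 27.7 CPM in 1b-/- libraries (adjusted p = 0.0204, edgeR). On the scale of all 11 libraries, these 2 WT libraries held 0.089 and 0.23 CPM and heterozygous-round WT libraries 11.8 to 17.2 CPM. The 1b-/- libraries held 14.0 and 26.9 CPM on this scale. Read type differed between the rounds, so these levels do not show which group moved. Slc9a5 measured 70.7 and 47.7 CPM in WT and 19.8 and 23.1 CPM in 1b-/- libraries (log2 difference -1.47, SE 0.22, adjusted p = 0.0386, edgeR). Scaled over all 11 libraries, its WT values were 69.5 and 47.0 CPM in this round and 20.9 to 29.2 CPM in the other. In 1b+/- mice it was also the exchanger with the smallest p (-0.40, SE 0.12, adjusted p = 0.281).

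Among 8 tested CLC channels and subunits outside the members 0 were called in either mutant. Clcn6, a late endosomal exchanger, had the smallest p in 1b-/- mice (0.35, SE 0.12, adjusted p = 0.154, edgeR), and Mlc1, an astrocytic partner of these channels, in 1b+/- mice (-0.06, SE 0.04, adjusted p = 0.547). Of 16 tested genes listed under volume-regulated and other anion channels, 1 (Ano3) was lower and 0 higher in 1b-/- mice. Being on this list does not show that a gene encodes such a channel. Ano3 measured 426 and 308 CPM in WT and 122 and 115 CPM in 1b-/- libraries (log2 difference -1.63, SE 0.19, adjusted p = 0.0266, edgeR). Scaled over all 11 libraries, its WT values were 418 and 304 CPM in this round and 127 to 157 CPM in the other. Ano2 had the smallest p in 1b+/- mice (-0.66, SE 0.16, adjusted p = 0.180).

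The genes whose log2 CPM followed Slc12a5 and Slc12a2 most closely were ranked over the 11 libraries among 9324 genes, after each round was centred on its mean. For Slc12a5 they were Grid1 (Pearson r = 0.95), Bcl7b (0.93) and Nudt3 (0.93). For Slc12a2 they were Elovl7 (0.98), Zfyve16 (0.97) and Ctnnal1 (0.95). Within the heterozygous round alone, r was 0.54 to 0.72 for the 3 genes named with Slc12a5 and 0.92 to 0.97 for those named with Slc12a2. The points share libraries, scaling and cell makeup.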

How the data were processed

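Hippocampal mRNA was sequenced from 11 mice. The authors deposited raw counts of reads per gene, unnormalized, after alignment to mm9 with STAR 2.7.2 and counting with featureCounts. The homozygous round was read single-end and the heterozygous round paired-end. Columns were matched to mice by name and groups taken from the labels' genotype. Library totals were 20667122 to 36145161. The members, lists and tests were chosen with earlier results of these data known.

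Each mutant group was tested against WT of its round with the quasi-likelihood test of edgeR 4.0.16 (R 4.3.3), on genes reaching 1 CPM in 1 or more libraries, with TMM factors, genotype as the only term and Benjamini-Hochberg adjustment over all genes (threshold 0.05). The difference between changes was fitted on all 11 libraries. A standard error is the size of the log2 difference over the square root of F. CPM are TMM-scaled within a round unless said otherwise. The ratio was tested by exact permutation. Code was tested on simulated counts. Alternatives were DESeq2 1.42.0, other scaling factors and filters, the likelihood ratio test, sex, 1 joint fit and each library left out. Every member was named, with the called genes of each list or else the gene of smallest p in each round, and Slc4a5 was added after its values were seen. The labels do not say whether mice were littermates, so p-values measure the spread between these animals.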

Additional observations from a re-analysis of the deposited data

Results flagged for a closer look

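In 23 sets of 4 1b+/- libraries (the 8 members, Scn1a, 13 named pathway genes and the ratio of Slc12a5 to Slc12a2), 2 had a library far from the others by Dixon's criterion, where chance gives about 1 in 20. For Car2 and for Car10 it was 1b+/- replicate 1, whose gap to the next library was 0.845 and 0.860 of the group's range. This library was the lowest in both genes and also had the fewest choroid plexus marker counts of the 4.

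The change in 1b-/- mice differed from that in 1b+/- mice, each against WT of its round, for 11 of 22 genes tested (adjusted p under 0.05, edgeR), where 27.3% of all genes did. The 22 genes include Scn1a and pathway genes named for their calls or smallest p in these libraries, so the excess over all genes follows from that choice and nothing is read from it. Of the 8 members only Slc4a8 was among them, at a log2 difference of 0.56. Scn1a differed by -2.36. Among pathway genes the difference was 0.78 for Slc12a7, 0.79 for Slc4a7, 0.35 for Clcn6 and 6.90 for Slc9a4, whose WT libraries of the homozygous round held 2 and 5 counts. It was -1.75 for Neto2, -1.69 for Ano3, -1.08 for Slc9a5, -0.77 for Wnk1 and -0.56 for Car2. Scaled over all 11 libraries, Scn1a measured 131 and 170 CPM in WT of the homozygous round and 116 to 175 CPM in WT of the other. Its 1b-/- libraries held 25.9 and 16.2 CPM. In the differences of the other genes, genotype effects and the distinct WT libraries of the homozygous round cannot be told apart.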

How the results depend on the processing

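Over 360 alternatives for single members, 325 kept direction and side of the threshold, 18 passed it newly, 0 were lost and 17 reversed. The difference of Slc4a8 between the changes was called in all 18. No member was called in 1b+/- mice under any of 15 alternatives. In 1b-/- mice 1 member was called with DESeq2 (Slc4a8), 3 with all 11 libraries in 1 fit (Slc4a4, Slc4a8, Clcn2) and 0 to 1 with a library left out (Slc12a2 without 1b-/- replicate 2). For the difference between changes, 3 members were called with DESeq2 and with the likelihood ratio test (Slc12a2, Slc4a4, Slc4a8), 2 with upper-quartile factors and with sex (Slc4a4, Slc4a8), and 1 to 3 with a library left out. Calls over all genes in the heterozygous round were 245 with DESeq2, 44 without a filter, 191 with the likelihood ratio test and 0 to 421 with a library left out (421 without WT replicate 1). In the homozygous round they were 2144 with DESeq2, 1029 without a filter, 1829 with the likelihood ratio test, 5541 with all 11 libraries and 0 to 693 with a library left out (0 without WT replicate 1, 192 without WT replicate 2). For the difference between changes they were 4435 with DESeq2, 4006 with the likelihood ratio test and 2867 to 4983 with a library left out, against 4071. The causes were not tested.

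All 17 reversals of members, and those of the ratio, were of results not past the threshold as reported. With a library left out, the log2 difference in 1b+/- mice ran from -0.023 to 0.034 for Slc4a8 (also -0.0057 and -0.012) and from -0.0016 to 0.11 for Slc4a4. In 1b-/- mice it ran from -0.19 to 0.084 for Slc12a5 and from -0.37 to 0.034 for Clcn3. The difference between changes ran from -0.15 to 0.14 for Slc12a5, from -0.43 to 0.031 for Slc4a3 and from -0.35 to 0.054 for Clcn3, and for Slc12a5 it was -0.012 with upper-quartile factors and -0.10 with sex. The log2 ratio difference in the homozygous round ran from -0.069 to 1.24 with a library left out (-0.069 without 1b-/- replicate 1) and was -0.069 in females only. In the heterozygous round it ran from -0.56 to -0.34. Leaving out a library of a group of 2 leaves a lone sample, which is assumed to vary like the others. A sex term in the homozygous round removes the only male. No paired analysis was possible because the labels give no replicate numbers.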
